A study of Mus musculus with 12 samples.

Results

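The comparison described here set the liver transcriptome of Bmal1 knockout (KO) mice against that of wild-type (WT) mice at circadian time 0 h (CT0), the hour at which the lights would have come on. It used 6 of the 12 RNA-seq libraries of the series, 3 KO and 3 WT, and the other 6 were the same genotypes at CT12. All mice were males, labelled C57BL/6 (C57BL/6J in the study's methods) and 8 weeks of age, and after a week of light-dark cycles they had spent 2 days in complete darkness. The WT mice carried Bmal1 with loxP sites around the exon that encodes its DNA-binding domain, on both alleles. The KO mice were the same line crossed to mice with a CRE recombinase under a liver-specific promoter. The sources name no CRE in the WT mice, and an effect of CRE and the loss of BMAL1 therefore cannot be told apart. Cells of the liver without that promoter's activity would keep Bmal1. The study's methods name 3 KO and 3 WT mice, while the submitters' treatment text counts fewer mice per genotype than the 3 samples listed at each time, and no label ties a sample to an animal, so p-values measure the spread between these samples, which may in part be technical. One row was kept per gene symbol, the transcript with the highest mean RPKM (reads per kilobase of transcript, scaled to the depth of the library) over the 12 libraries. Of 22322 symbols, 10653 had a mean of at least 1 RPKM in KO or in WT at CT0 and were tested.

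BMAL1, encoded by Arntl, pairs with CLOCK or NPAS2 and binds E-boxes, the sequence CACGTG, to activate transcription of Per, Cry, Nr1d1, Nr1d2 and Dbp. PER and CRY proteins then inhibit the pair, while REV-ERB (Nr1d1, Nr1d2) and ROR proteins compete at sites built on AGGTCA, among them sites in Arntl itself. The clock's output bZIP factors DBP, TEF and HLF activate, and NFIL3 represses, genes with D-boxes, and in liver this network times lipid, bile acid and drug metabolism.

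Promoters of 6 genes that differed are shown to place short letter patterns related to these factors relative to the starts. All 6 hold a match, so they do not show how often matches occur among the genes that differed. Those shares are given below. They are RefSeq promoters on GRCm38.p6, from 250 bases before to 50 after a transcription start, read 5′ to 3′ on the gene's strand. Capitals mark CACGTG. They also mark AGGTCA, on either strand. TTANNTAA, with N any base, is marked too as a loose pattern for D-boxes, and a match need not be a D-box. As a pattern it reads the same on both strands, like CACGTG. Arntl (second start, chr7:113207261-113207560, plus strand) fell in KO and holds AGGTCA, Cry1 (chr10:85185005-85185304, minus strand) rose and holds CACGTG 60 bases before the start, Nr1d2 (chr14:18239057-18239356, minus strand) and Nfil3 (chr13:52980990-52981289, minus strand) fell and hold AGGTCA, Tef (first start, chr15:81802423-81802722, plus strand) rose and holds CACGTG and TTANNTAA, and Ces1e (chr8:93229570-93229869, minus strand), a carboxylesterase that fell, holds TTANNTAA at 3 places.
Arntl: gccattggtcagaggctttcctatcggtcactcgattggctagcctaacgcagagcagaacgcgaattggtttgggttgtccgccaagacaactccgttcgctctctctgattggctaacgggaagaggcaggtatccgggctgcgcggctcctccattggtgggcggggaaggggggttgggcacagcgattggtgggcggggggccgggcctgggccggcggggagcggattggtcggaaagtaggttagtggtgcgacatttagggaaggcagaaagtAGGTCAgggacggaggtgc
Cry1: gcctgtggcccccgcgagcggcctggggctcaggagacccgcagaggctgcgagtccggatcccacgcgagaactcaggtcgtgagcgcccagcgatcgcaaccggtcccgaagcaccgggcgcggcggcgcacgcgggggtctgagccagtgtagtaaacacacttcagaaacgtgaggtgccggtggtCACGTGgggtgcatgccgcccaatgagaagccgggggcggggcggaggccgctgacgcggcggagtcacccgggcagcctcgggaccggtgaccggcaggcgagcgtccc
Nr1d2: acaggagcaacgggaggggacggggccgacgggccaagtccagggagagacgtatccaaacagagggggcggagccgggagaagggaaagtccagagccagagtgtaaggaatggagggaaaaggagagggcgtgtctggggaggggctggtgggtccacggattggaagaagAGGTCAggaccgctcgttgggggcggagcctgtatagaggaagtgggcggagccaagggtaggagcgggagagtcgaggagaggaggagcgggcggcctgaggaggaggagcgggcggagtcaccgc
Nfil3: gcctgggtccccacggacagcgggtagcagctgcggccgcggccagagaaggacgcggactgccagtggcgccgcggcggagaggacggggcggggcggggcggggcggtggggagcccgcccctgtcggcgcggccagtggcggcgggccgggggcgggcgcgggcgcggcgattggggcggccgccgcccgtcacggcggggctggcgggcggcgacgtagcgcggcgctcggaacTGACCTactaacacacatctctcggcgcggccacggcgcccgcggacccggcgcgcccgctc
Tef: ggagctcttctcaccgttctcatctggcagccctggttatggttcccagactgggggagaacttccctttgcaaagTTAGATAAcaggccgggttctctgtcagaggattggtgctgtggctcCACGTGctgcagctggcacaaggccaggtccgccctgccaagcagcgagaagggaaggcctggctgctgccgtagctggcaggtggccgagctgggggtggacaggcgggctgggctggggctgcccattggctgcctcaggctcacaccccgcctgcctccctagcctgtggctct
Ces1e: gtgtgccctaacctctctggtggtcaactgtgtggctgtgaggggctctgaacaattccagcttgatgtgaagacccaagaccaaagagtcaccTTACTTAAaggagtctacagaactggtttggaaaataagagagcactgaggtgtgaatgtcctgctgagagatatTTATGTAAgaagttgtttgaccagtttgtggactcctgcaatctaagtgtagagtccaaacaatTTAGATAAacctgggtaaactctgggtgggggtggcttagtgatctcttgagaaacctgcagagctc

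A promoter was found for 8540 of the 10653 tested genes, and for 91 of the 109 genes higher and 72 of the 92 genes lower in KO. CACGTG was in at least 1 promoter of 11.9% of the tested genes, 7.69% of those higher (7 of 91) and 4.17% of those lower (3 of 72). AGGTCA was in 15.8%, 16.5% (15 of 91) and 26.4% (19 of 72), and TTANNTAA in 4.89%, 5.49% (5 of 91) and 18.1% (13 of 72). Over all 32851 promoters searched, the shares were 7.15% for CACGTG, 16.3% for AGGTCA and 6.0% for TTANNTAA. The 13 lower genes with TTANNTAA included Alb, Saa4, Slc22a26, Ces1b, Ces1e, Ces1g, Ugt1a2 and Ugt1a9, and relatives such as the Ces1 genes share sequence and do not count as separate cases. These are descriptions of letters in a short window, with no test, and a TTANNTAA match need not be a D-box.

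The depth, recovered from the steps in the low RPKM values, was 16900000 to 19020000 reads in WT and 11460000 to 14910000 in KO at CT0, so each WT library was deeper than each KO library. Thinning all libraries to 11460000 reads gave 185 genes in place of 201. Principal component 1 (39.6% of the variance at CT0) separated WT (-15.9 to -13) from KO (7.6 to 24.3), with KO replicate 1 farthest out. Kupffer cell, endothelial and MHC class II markers gave 0 calls in limma among 13, 11 and 6 kept genes, also at an unadjusted p under 0.05, and their medians lay between -0.08 and 0.05. Neutrophil markers had positive differences that did not pass: all 7 kept of 9 were positive, 0 had an adjusted p under 0.05 by limma and 7 an unadjusted p under 0.05, and their summed RPKM was 31.7 to 112 in WT and 102 to 222 in KO. The part of these markers in the results below was not tested. Over all 10653 genes tested, 1521 had an unadjusted p under 0.05, 843 of them higher in KO and 678 lower. Counts at that level given below are to be read beside these. In bulk tissue, fewer cells of a type and less RNA per cell cannot be told apart.

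In KO 201 genes differed from WT at an adjusted p under 0.05, which is 1.89% of the genes tested (limma on log2(RPKM + 1), Benjamini-Hochberg adjusted). Of these 109 (1.02%) were higher and 92 (0.864%) lower. The median log2 difference (KO minus WT, on the log2(RPKM + 1) scale, as are all differences below, which are given ± SE with limma's adjusted p and 3 samples a group) was 0.8 among the higher genes, -0.83 among the lower genes and 0.012 over all genes tested. At least 1 on the log2 scale was reached by 40 higher and 28 lower genes, and at least 2 by 10 and 6. The 3 KO samples lay outside the range of the 3 WT samples for 1215 genes upward (11.4% of those tested) and 985 downward (9.25%), and this held for all 201 genes called. The count was lower whichever library was left out. It was 142 without WT replicate 1, 77 without WT replicate 2 and 105 without WT replicate 3. It was 122 without KO replicate 1, 184 without KO replicate 2 and 108 without KO replicate 3. Each of these runs also left 1 group with 2 samples, so the smaller group and the library left out cannot be told apart.

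At CT12 1092 genes (10.3%) differed between the genotypes in the same fit. Of the 109 genes higher at CT0, 85 were also higher there, 2 were lower and 22 did not pass. Of the 92 lower genes, 61 were also lower, 1 was higher and 30 did not pass. The genotype difference itself differed between CT12 and CT0 for 145 genes (1.36%), among them 11 of the 109 higher and 5 of the 92 lower genes.

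The targeted gene was lower in KO at CT0 and its level differed little between replicates. Arntl (chr7:120350979-120457636 on mm9, the build of the files) stood at 16.4, 15.7 and 15.7 RPKM in the WT samples and at 5.92, 5.73 and 7.45 in KO, a log2 difference of -1.21 ± 0.13, adjusted p = 5.7e-04. The groups did not overlap. The values count reads over the whole transcript of 2904 bases, so transcripts that lack the floxed exon are counted too. At CT12 the order was the opposite, 1.26, 0.68 and 1.21 RPKM in WT and 4.37, 3.59 and 4.01 in KO, a log2 difference of 1.29, adjusted p = 6.3e-05. The KO level thus lay between the WT levels of the 2 times.

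Among the activators of the clock, the partner genes of Arntl did not move together. Clock, which encodes the usual partner of BMAL1, was 12.6, 13.5 and 12.6 RPKM in WT and 13.8, 13.2 and 12.4 in KO (0.02, adjusted p = 0.97; 95% interval -0.30 to 0.34). Npas2, whose product can take the place of CLOCK, rose from 1.99, 2.68 and 1.94 RPKM to 4.99, 4.35 and 4.82 (0.84 ± 0.11, adjusted p = 0.0035). Every KO value of Npas2 lay above every WT value. Rora, a nuclear receptor that activates through AGGTCA sites, was at 14.6 to 17.0 RPKM in WT and 15.2 to 15.7 in KO (-0.06, adjusted p = 0.87). Arntl2 was at 0.574 to 0.726 RPKM in all 6 samples, under the filter, and Rorb was at or near 0.

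Repressors of the clock went in opposite directions by family. Cry1, which encodes the main inhibitor of CLOCK and BMAL1 late in the cycle, rose from 5.16, 5.32 and 4.06 RPKM to 17.4, 16.4 and 17.4 (1.64 ± 0.10, adjusted p = 5.0e-06). Cry2 rose less, from 3.97, 4.43 and 6.11 RPKM to 8.14, 7.32 and 8.56 (0.64 ± 0.14, adjusted p = 0.041). Per2, the partner of the CRY proteins, rose from 1.5, 0.964 and 1.28 RPKM to 5.39, 3.38 and 3.11 (1.12 ± 0.18, adjusted p = 0.0091). The 3 KO samples of each of these genes lay above all WT samples. Bhlhe40, encoding the E-box repressor DEC1, rose from 15.1, 12.6 and 20.8 RPKM to 47.1, 31.3 and 27.7 (1.07 ± 0.21, adjusted p = 0.025), on a transcript of 476 bases. Per3 was 0.309, 0.386 and 0.326 RPKM in WT and 1.45, 1.23 and 0.785 in KO and did not pass (0.67, adjusted p = 0.066), although the groups did not overlap. Per1 (0.73, adjusted p = 0.3) and Bhlhe41 (0.22, adjusted p = 0.91) overlapped between groups and reached the filter in KO only, as did Per3. Gm129 stayed under the filter, with at most 0.469 RPKM.

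The genes for both REV-ERB proteins fell. Nr1d1 was 2.04, 2.05 and 6.57 RPKM in WT and 0.271, 0.31 and 0.801 in KO (-1.52 ± 0.31, adjusted p = 0.032), with WT replicate 3 well above the other WT samples. It reached the filter in WT only. Nr1d2 was 3.59, 3.21 and 6.83 RPKM in WT and 1.71, 1.49 and 2.02 in KO (-0.96 ± 0.22, adjusted p = 0.047), again with the highest value in WT replicate 3. Neither gene overlapped between groups. In all, 4 of the 9 kept repressors rose and 2 fell (1.02% and 0.864% of all genes did).

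Of the output bZIP factors, Tef rose and Nfil3 fell. Tef was 8.76, 9.37 and 7.69 RPKM in WT and 19.6, 15.5 and 17.6 in KO (0.94 ± 0.11, adjusted p = 9.2e-04). Nfil3, the repressor at D-boxes, was 10.5, 13 and 14.2 RPKM in WT and 7.85, 7.94 and 6.8 in KO (-0.66 ± 0.15, adjusted p = 0.047). The groups were apart for both. Dbp was low in both genotypes at this time, 0.661, 1.25 and 1.18 RPKM in WT and 1.51, 1.84 and 1.63 in KO (0.40, adjusted p = 0.54), and Hlf was 2.48 to 3.82 and 3.04 to 3.86 (0.07, adjusted p = 0.9). Klf9, a transcription factor gene that responds to glucocorticoids, fell (-0.55 ± 0.09, adjusted p = 0.012), a call that was lost with only the 6 CT0 samples in the fit (adjusted p 0.085). Several of the clock calls were lost when 1 library was left out. The threshold was missed by Per2 without WT replicate 2 (adjusted p 0.05), by Cry2 without WT replicates 1 or 2 or KO replicates 1, 2 or 3 (adjusted p 0.056 to 0.16), by Nr1d1 without KO replicates 1, 2 or 3 (adjusted p 0.051 to 0.1), by Nr1d2 without each of the 6 libraries in turn (adjusted p 0.052 to 0.12), by Bhlhe40 without WT replicates 1 or 2 or KO replicate 1 (adjusted p 0.071 to 0.11) and by Nfil3 without WT replicates 2 or 3 or KO replicates 1, 2 or 3 (adjusted p 0.073 to 0.17).

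**Figure D1:**
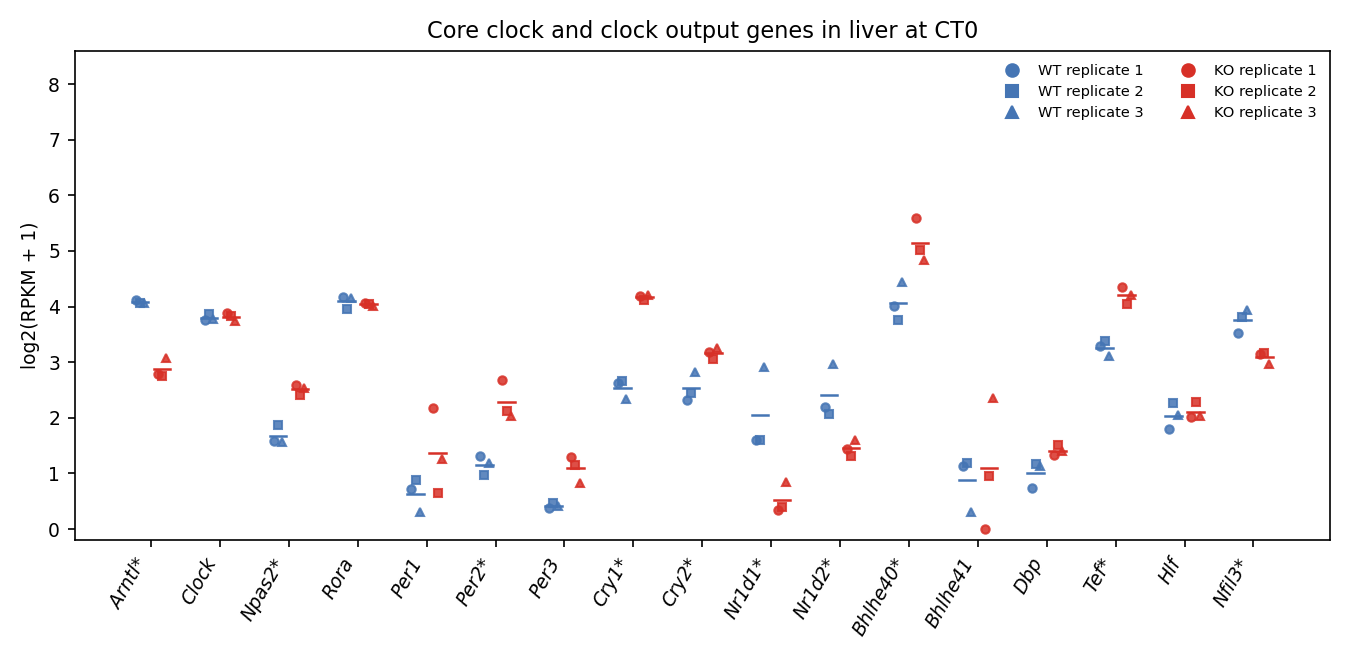
Levels of 17 kept clock and clock output genes at CT0, as log2(RPKM + 1), with 1 point per sample and a line at each group's mean; an asterisk marks an adjusted p under 0.05. Arntl, Nr1d1, Nr1d2 and Nfil3 lie lower in KO, Npas2, Per2, Cry1, Cry2, Bhlhe40 and Tef higher, and the groups overlap for Clock and Rora.

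The largest rises outside the clock were in enzymes of drug and steroid metabolism and in genes of lipid handling and signalling. Sult1e1, the estrogen sulfotransferase, was 3.86, 0.0417 and 1.83 RPKM in WT and 76.9, 26.6 and 39.8 in KO (4.19 ± 0.62, adjusted p = 0.0062). The WT values spread widely, with 1 read in WT replicate 2, while all KO values were far above them. Lpl, the lipoprotein lipase that releases fatty acids from circulating triglyceride, rose from 5.4, 8.46 and 7.16 RPKM to 24.6, 84.7 and 45.4 (2.56 ± 0.33, adjusted p = 0.0022). Serpina12, the adipokine vaspin, rose from 5.52, 3.49 and 6.16 RPKM to 35.1, 32.2 and 37.9 (2.60 ± 0.42, adjusted p = 0.0086). Both sets of KO values lay above every WT value. Grk5, a kinase that desensitizes G protein-coupled receptors, rose from 4.25, 3.56 and 3.52 RPKM to 25.6, 21.9 and 22.7 (2.35 ± 0.16, adjusted p = 9.9e-06). Ntrk2, the receptor TrkB, rose from 0.741, 0.345 and 0.127 RPKM to 5.93, 3.72 and 5.03 (2.08 ± 0.18, adjusted p = 8.5e-05) and passed the filter through KO only. Slc34a2, a sodium-phosphate cotransporter, rose by 2.05 ± 0.20, adjusted p = 2.2e-04, and Defb1, an antimicrobial defensin, by 1.88 ± 0.37, adjusted p = 0.026. Defb1 missed the threshold without WT replicates 1 or 2 or KO replicates 1 or 2 (adjusted p 0.07 to 0.12).

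On the log2(RPKM + 1) scale the largest fall was that of Dio1, the deiodinase that makes active thyroid hormone from thyroxine. The order depends on the scale. The ratio of group means, WT over KO, was 9.435 for Dio1 and larger for 3 genes lower in level, Slc22a26 (25.02), Nat8 (17.17) and AC163723.1 (11.69). Dio1 was 36.2, 37.7 and 39.1 RPKM in WT and 3.9, 3.9 and 4.19 in KO (-2.95 ± 0.16, adjusted p = 3.0e-06), with very little spread inside either group, on a transcript of 396 bases. It lies at chr4:106964070-106979774 (mm9). No other of the 12 kept genes of thyroid hormone action passed in limma, and 3 others, all with positive differences, had an unadjusted p under 0.05. Fitm1, which helps store triglyceride in lipid droplets, fell from 7.65, 7.76 and 7.02 RPKM to 0.831, 0.725 and 0.99 (-2.20 ± 0.17, adjusted p = 3.9e-05). Slc22a26, of the organic anion transporter family, fell from 6.57, 4.14 and 3.48 RPKM to 0.0334, 0.49 and 0.0435 (-2.25 ± 0.35, adjusted p = 0.0076). Hspb1, a small heat shock protein, fell from 6.04, 12.4 and 8.72 RPKM to 2.08, 1.09 and 1.93 (-1.87 ± 0.28, adjusted p = 0.0067). The groups were apart for each. Nat8 (-2.07 ± 0.20, adjusted p = 2.2e-04) and its neighbour Cml5 (-1.78 ± 0.39, adjusted p = 0.044), related acetyltransferases that may share reads, fell together, as did the unplaced AC163723.1 (-2.23 ± 0.31, adjusted p = 0.0043). Fitm1, Slc22a26, AC163723.1 and Nat8 reached the filter in WT only. Cml5 missed the threshold without WT replicates 1, 2 or 3 or KO replicates 1 or 2 (adjusted p 0.073 to 0.16).

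**Figure D2:**
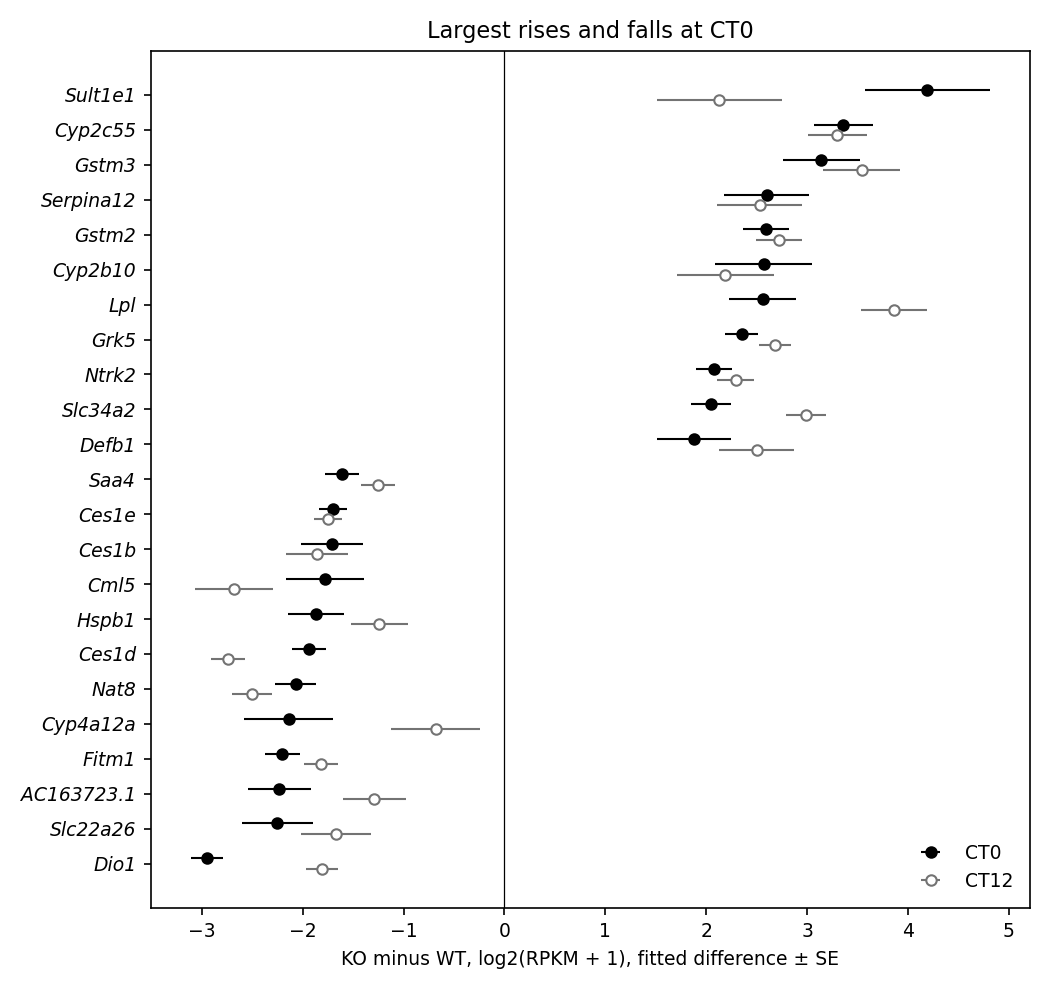
Fitted KO minus WT difference ± SE, on the log2(RPKM + 1) scale, for 11 of the 12 largest rises and the 12 largest falls at CT0, with the same genes at CT12 as open points. Genes were chosen on the CT0 values; all 23 lie on the same side of 0 at CT12, and of them Dio1 passed the test of the difference between the times (-1.81 at CT12).

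Glutathione S-transferases, which conjugate glutathione to reactive compounds, rose in the mu class. Of 21 kept genes, 5 rose (1.02% of all genes did), all of that class, and 0 fell (5 with an unadjusted p under 0.05). Gstm3 rose from 37, 44.9 and 35.9 RPKM to 540.5, 184 and 443 (3.14 ± 0.38, adjusted p = 0.0013), Gstm2 from 52.5, 50.7 and 48.7 to 398, 201 and 375 (2.59 ± 0.23, adjusted p = 9.6e-05). KO replicate 2 was the lowest KO sample for both, and still far above WT. Gstm6 rose from 82.2, 78 and 86.4 RPKM to 335, 229.5 and 254 (1.70 ± 0.13, adjusted p = 3.4e-05), and Gstm1, the most abundant member, from 997, 1276 and 1086 to 2360, 2447 and 3126 (1.24 ± 0.13, adjusted p = 5.8e-04). Gstm7 had 0.73, adjusted p = 0.02 and missed the threshold without WT replicate 2 or KO replicates 1 or 3 (adjusted p 0.068 to 0.095). Gstm4 (0.44) and Gstm5 (0.34) did not pass, though their groups did not overlap. The 7 mu genes lie within 149.1 kb, at chr3:107698739-107847812 (mm9), and are alike enough in sequence that reads may be split among them. The alpha-class genes Gsta2 and Gsta4, named after their values were seen, had differences of -1.19, adjusted p = 0.074 and -1.03, adjusted p = 0.12, with KO below WT and no overlap. The median over the 21 genes was 0.02, against 0.01 over all genes.

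Carboxylesterases, which hydrolyse esters including drugs and stored lipid, fell within 1 cluster. Of 13 kept genes (with Aadac), 0 rose (1 with an unadjusted p under 0.05) and 5 fell (0.864% of all genes did). All 5 were Ces1 genes. Ces1d fell from 392, 583 and 502 RPKM to 131, 123 and 124 (-1.94 ± 0.17, adjusted p = 9.6e-05). Ces1f fell from 261, 283 and 267 to 120.1, 112 and 121 (-1.19 ± 0.09, adjusted p = 3.9e-05), and Ces1e from 87.4, 104 and 106 to 30.7, 27.6 and 30.9 (-1.70 ± 0.14, adjusted p = 7.8e-05). The KO samples of each lay close together and far under WT. Ces1b (-1.71, adjusted p = 0.016) and Ces1g (-0.90, adjusted p = 0.047) fell too. Ces1b missed the threshold without WT replicates 2 or 3 or KO replicate 1 (adjusted p 0.058 to 0.072), and Ces1g without each of the 6 libraries in turn (adjusted p 0.051 to 0.17). Ces1c, the most abundant, was 1755, 1956 and 1774 RPKM in WT and 1536, 1598 and 1691 in KO (-0.18, adjusted p = 0.48). The Ces1 genes with a position lie within 280.6 kb at chr8:95580626-95861207 (mm9). The 6 Ces2 and Ces3 genes, in another cluster of the same chromosome, had differences between -0.31 and 0.38 and none passed in limma. Related genes of a cluster may share reads.

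**Figure D3:**
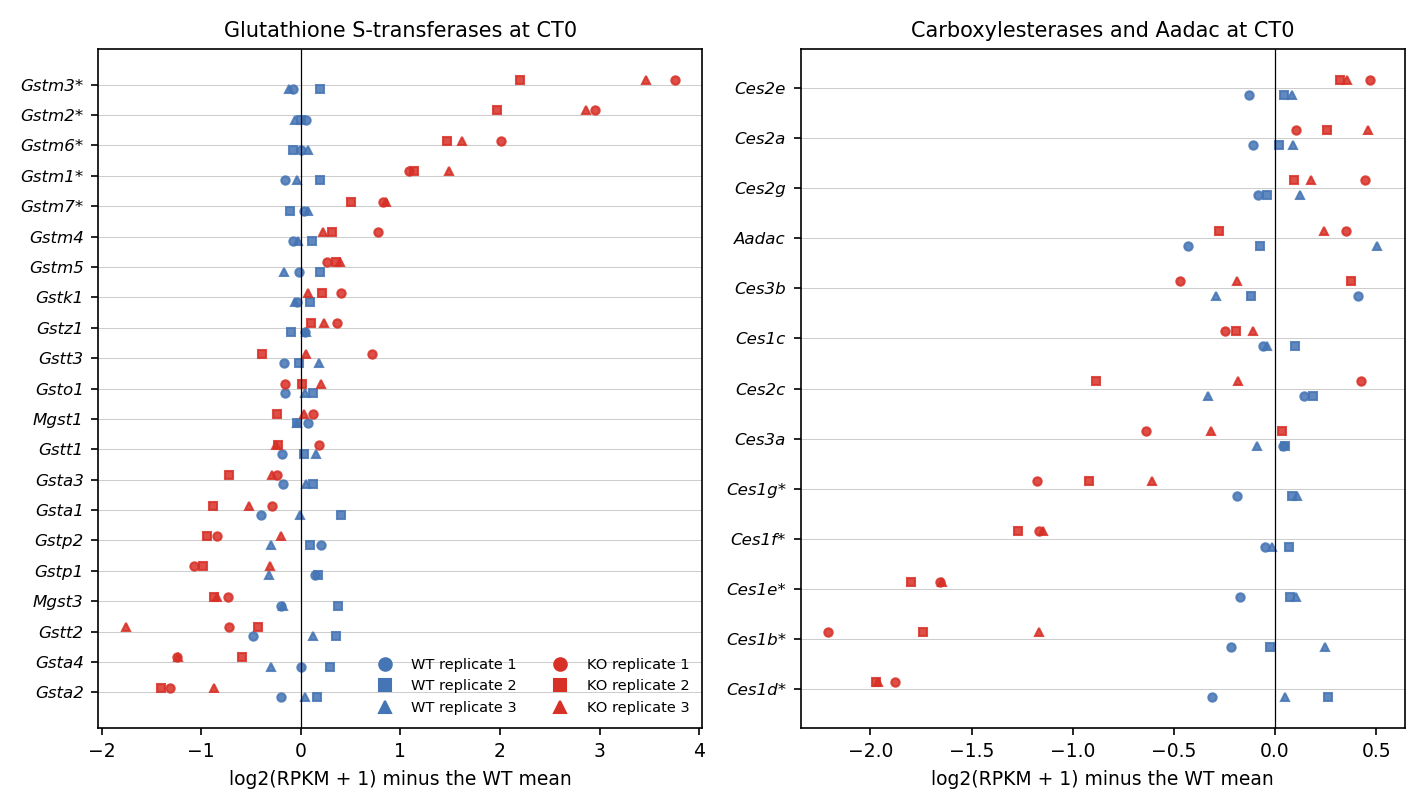
Each sample's log2(RPKM + 1) minus the WT mean at CT0 for 21 glutathione S-transferase genes and for 13 carboxylesterase genes with Aadac; an asterisk marks an adjusted p under 0.05. The 5 marked Gstm genes lie to the right of WT in all KO samples and the 5 marked Ces1 genes to the left.

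Cytochromes P450 of drug metabolism went both ways. Of 35 kept genes 4 rose and 2 fell (1.02% and 0.864% of all genes did), and the KO samples lay above all WT samples for 15 and under them for 6 (11.4% and 9.25% of all genes did). The median was 0.27. Cyp2c55 rose from 2.41, 3.93 and 3.56 RPKM to 54.5, 43.3 and 32.5 (3.36 ± 0.29, adjusted p = 8.5e-05). Cyp2b10, the best known target of the xenobiotic receptor CAR, rose from 0.988, 3.98 and 1.07 to 24.1, 12.9 and 11.3 (2.57 ± 0.48, adjusted p = 0.021). Cyp2c29 rose from 714, 885 and 749.7 to 2649, 1966 and 1785 (1.43 ± 0.17, adjusted p = 0.0011). The groups were apart for each of these genes. Cyp2c29 is also 1 of 9 kept markers of pericentral hepatocytes, of which no other passed in limma. Of the 9, 6 had negative differences, and their median was -0.07. Cyp3a59 rose by 1.47 ± 0.26, adjusted p = 0.014. Cyp2a4 fell from 6.81, 10.1 and 7.1 RPKM to 4.06, 1.92 and 2.44 (-1.26 ± 0.22, adjusted p = 0.013) together with its near-copy Cyp2a5 (-1.33 ± 0.20, adjusted p = 0.0067), whose reads cannot be kept apart with certainty. Cyp2b10 missed the threshold without WT replicates 1 or 3 or KO replicate 1 (adjusted p 0.071 to 0.086), and Cyp2a4 without WT replicate 2 or KO replicate 3 (adjusted p 0.054 to 0.069). Cyp2d40, a P450 gene outside the list that was named after its values were seen, fell as well (-1.31 ± 0.18, adjusted p = 0.0043). Cyp3a59 missed the threshold with only the 6 CT0 samples in the fit (adjusted p 0.071). Of the 10 receptors and cofactors that regulate such genes, 1 passed, Ppara.

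Among 30 other conjugating enzymes 4 rose and 3 fell (1.02% and 0.864% of all genes did). Sult1d1, a sulfotransferase, rose from 41.4, 47.5 and 61.8 RPKM to 98.6, 99 and 117 (1.06 ± 0.17, adjusted p = 0.0083). Ugp2, which makes UDP-glucose, rose from 108, 107 and 133 to 234, 175 and 188 (0.77 ± 0.16, adjusted p = 0.034). The bilirubin glucuronosyltransferase gene Ugt1a1 had -0.55, adjusted p = 0.034 and Ugt1a9 -0.52, adjusted p = 0.038, and since the Ugt1a transcripts share most exons they are not separate observations. Of 20 kept transporters, Slco1a4, an uptake carrier of organic anions, rose from 43.7, 49.1 and 43 RPKM to 73.9, 75.5 and 106 (0.88 ± 0.18, adjusted p = 0.031). The exporter Slc47a1 fell from 45.1, 46.7 and 46.9 to 28.8, 13.4 and 15.4 (-1.30 ± 0.21, adjusted p = 0.0083), and the uptake carrier Slc22a7 from 13.1, 8.8 and 12.8 to 5.85, 5.7 and 2.74 (-1.16 ± 0.22, adjusted p = 0.023). No group overlapped for these genes. The threshold was missed by Slc47a1 with only the 6 CT0 samples in the fit (adjusted p 0.067), by Ugp2 without WT replicates 1 or 2 or KO replicates 1 or 3 (adjusted p 0.085 to 0.14), by Slco1a4 without WT replicates 1, 2 or 3 or KO replicate 3 (adjusted p 0.084 to 0.11), by Slc22a7 without WT replicates 1 or 3 (adjusted p 0.074 to 0.089), by Ugt1a1 without WT replicates 2 or 3 or KO replicates 1, 2 or 3 (adjusted p 0.058 to 0.15) and by Ugt1a9 without WT replicates 2 or 3 or KO replicates 1, 2 or 3 (adjusted p 0.073 to 0.16).

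Genes of fatty acid oxidation and other targets of PPARα, the receptor that senses fatty acids, lay lower in KO. Of 38 listed genes 37 were kept, 2 of them through WT only. In limma 0 rose (1 with an unadjusted p under 0.05) and 4 fell (0.864% of all genes did). The difference was negative for 33 of the 37, and for 23 all KO samples lay under all WT samples, while 9.25% of all genes did so. The median was -0.35, against 0.01 over all genes, and it stayed between -0.42 and -0.32 when each library was left out. Ppara itself, counted above among the receptors, fell from 36.9, 37.5 and 37.1 RPKM to 23, 25.4 and 23.2 (-0.62 ± 0.12, adjusted p = 0.023). It varied little within groups. Acaa1a and Acaa1b, the peroxisomal thiolases of β-oxidation, fell, the first from 91, 111 and 103 RPKM to 63.1, 55.9 and 57.6 (-0.78 ± 0.15, adjusted p = 0.023) and the second from 276, 367 and 296 to 167, 136 and 100 (-1.24 ± 0.25, adjusted p = 0.028). Cpt1a, which controls the entry of fatty acids into mitochondria, was 50.6, 60.6 and 63.1 RPKM in WT and 29.9, 42.6 and 34.8 in KO (-0.69 ± 0.15, adjusted p = 0.038). Cyp4a12a, an ω-hydroxylase that is higher in males, fell from 23.3, 20.6 and 35.1 to 3.24, 4.32 and 8.82 (-2.14 ± 0.44, adjusted p = 0.032).

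Several strongly expressed members did not pass although their groups were apart. Fabp1, the liver fatty acid binding protein, named after its values were seen like the next gene, was 4127, 3971 and 3708 RPKM in WT and 1814, 2841 and 1198 in KO (-1.10, adjusted p = 0.083). Cyp4a10 was 61.6, 116 and 108 in WT and 14.6, 28.9 and 26.5 in KO (-1.99, adjusted p = 0.12). WT replicate 1 was the lowest WT sample for 27 of the 37 genes, among them Cyp4a14 (60.6, 231 and 190.4 RPKM in WT, 77.7, 124 and 62 in KO). Leaving out 1 library gave 0 to 2 calls in limma in place of 4. There were 0 without WT replicate 2 (10 with an unadjusted p under 0.05) or without WT replicate 3 (12), and also 0 with no filter on low values (17). Ppara missed the threshold without WT replicates 1, 2 or 3 or KO replicates 1 or 3 (adjusted p 0.06 to 0.095), Acaa1a without WT replicates 2 or 3 or KO replicates 2 or 3 (adjusted p 0.059 to 0.11), Acaa1b without WT replicates 1, 2 or 3 or KO replicates 2 or 3 (adjusted p 0.053 to 0.13), Cpt1a without WT replicates 2 or 3 or KO replicates 1 or 3 (adjusted p 0.12 to 0.15) and Cyp4a12a without WT replicates 1, 2 or 3 or KO replicates 1 or 2 (adjusted p 0.071 to 0.13).

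**Figure D4:**
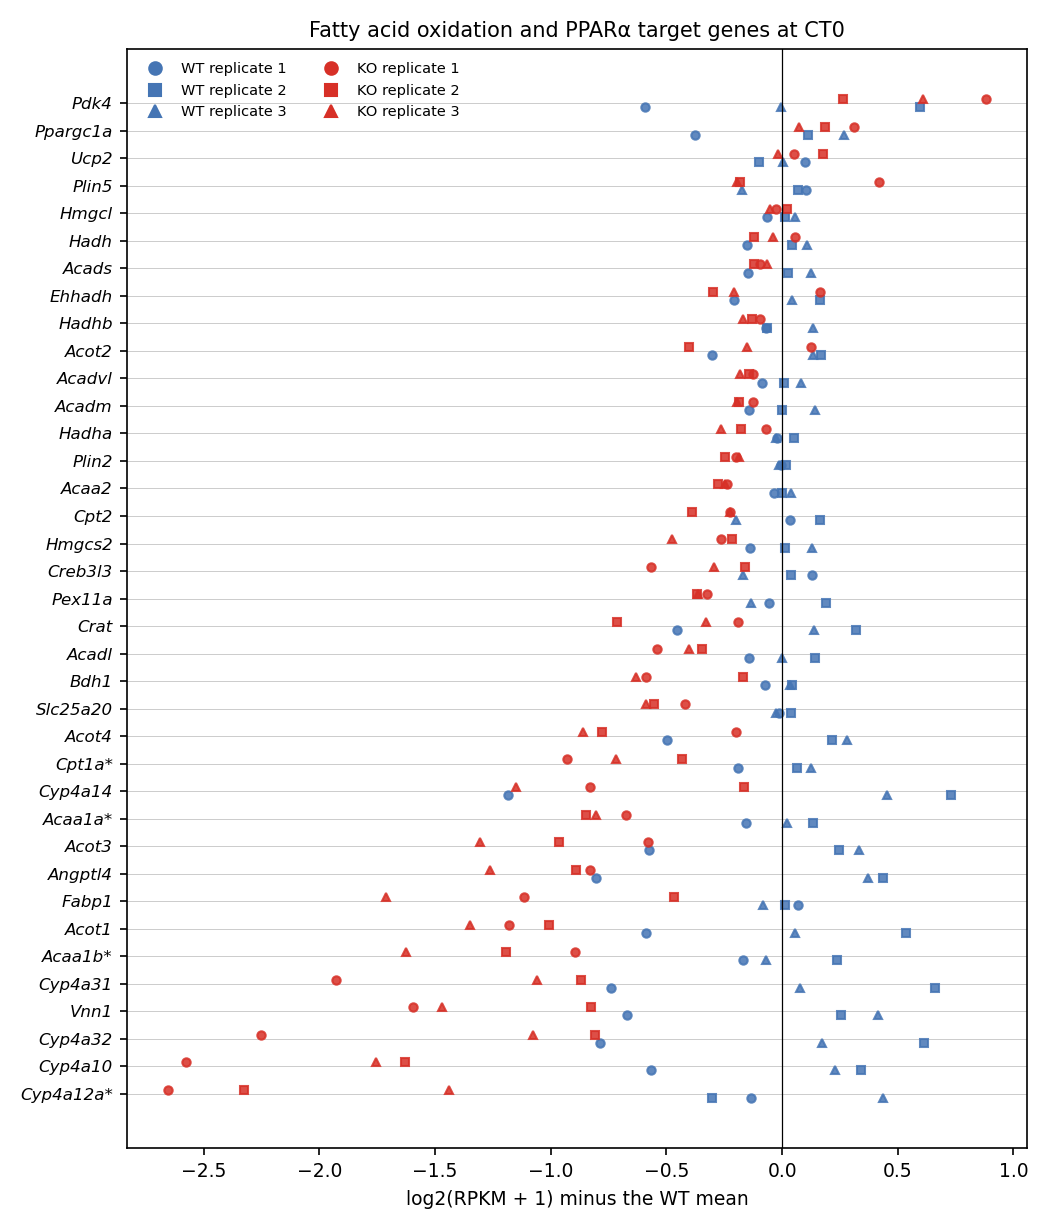
Each sample's log2(RPKM + 1) minus the WT mean at CT0 for 37 kept genes of fatty acid oxidation and PPARα targets; an asterisk marks an adjusted p under 0.05. KO points lie to the left of the WT points for 23 genes, and WT replicate 1 (blue circles) lies lowest among WT samples for 27 of them.

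Lipid synthesis was set apart by KO replicate 1. Of 27 kept genes of fatty acid and triglyceride synthesis 1 rose and 0 fell in limma. At an unadjusted p under 0.05 there were 4 higher and 0 lower. For all 10653 genes tested, 109 rose and 92 fell, with 843 higher and 678 lower at an unadjusted p under 0.05. Scd2, a stearoyl-CoA desaturase, rose from 1.39, 1.85 and 2.14 RPKM to 5.56, 4.78 and 5.5 (1.18 ± 0.18, adjusted p = 0.0076). The genes named next were chosen after their values were seen. Fasn, the fatty acid synthase, was 96, 81.8 and 125 RPKM in WT and 536, 89 and 100 in KO (0.76, adjusted p = 0.64). Acly, which makes cytosolic acetyl-CoA, was 149, 138 and 181 in WT and 1059, 177 and 220.1 in KO (1.15, adjusted p = 0.33), and Thrsp, a lipogenic cofactor, 86.1, 59.5 and 72.5 and 912, 82.9 and 133 (1.57, adjusted p = 0.31). In each the first KO value was far above the other 5 samples, which had similar levels. Me1, the malic enzyme, was 19.3, 25.9 and 37.6 in WT and 139, 7.72 and 16.1 in KO, so that the other KO samples lay under WT. The median difference of the list was 0.20 with all samples and -0.04 without KO replicate 1.

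Genes of cholesterol synthesis had mostly positive differences, and none passed the test. Of 28 kept genes 0 had an adjusted p under 0.05 in limma and 10 an unadjusted p under 0.05, all 10 higher. At that unadjusted level 843 of all 10653 genes tested were higher. The difference was positive for 23, and the KO samples lay above all WT samples for 8 (11.4% of all genes did). The median was 0.42, and 0.21 without KO replicate 1. Fdps, the farnesyl diphosphate synthase, named after its values were seen, was 221, 247 and 283 RPKM in WT and 676, 294 and 409 in KO (0.80, adjusted p = 0.19).

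**Figure D5:**
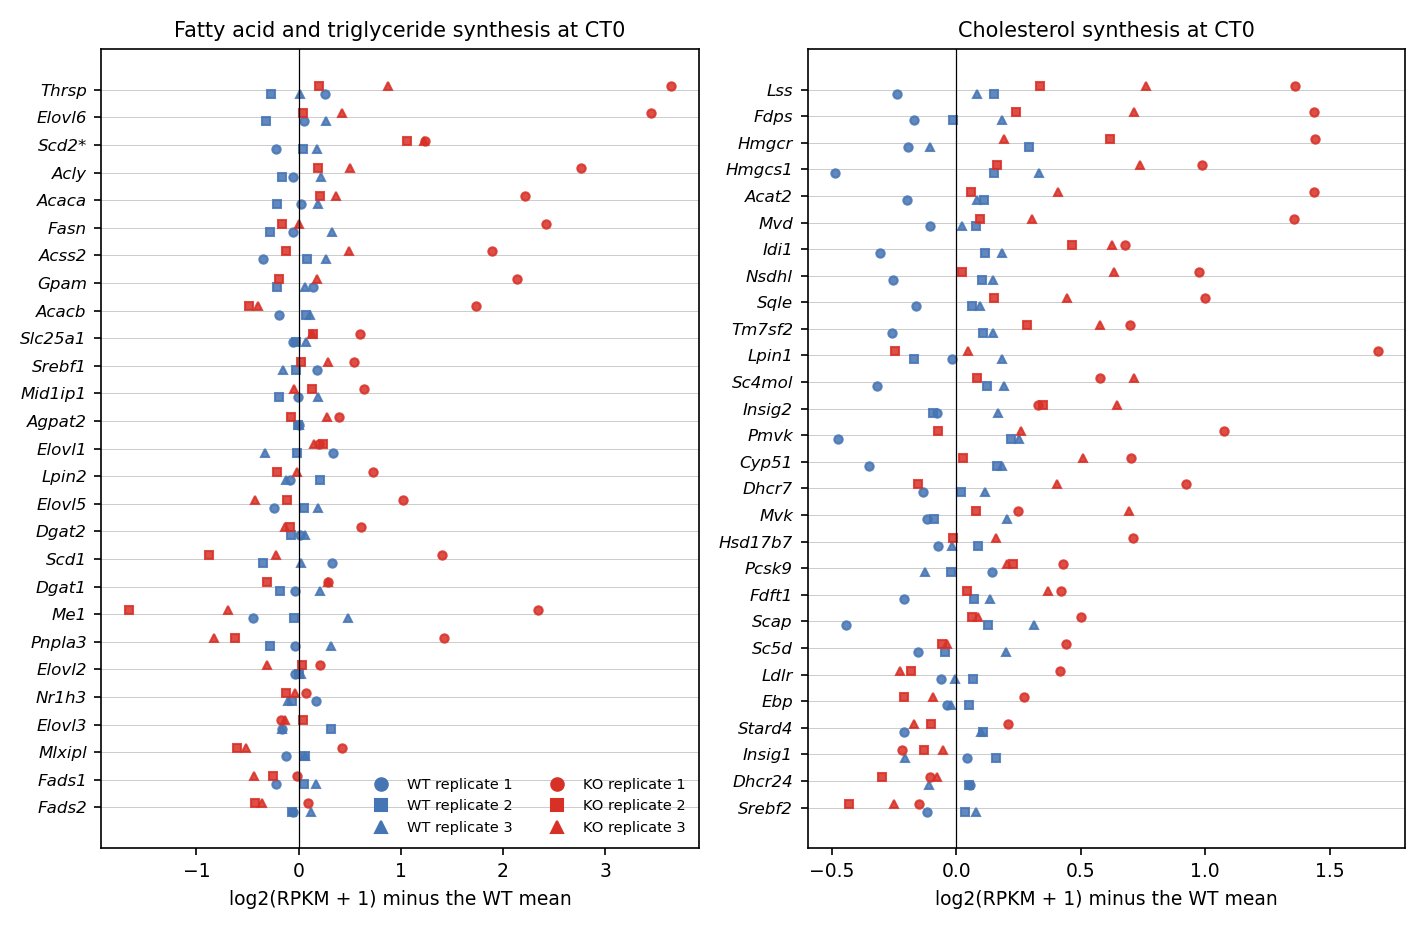
Each sample's log2(RPKM + 1) minus the WT mean at CT0 for 27 genes of fatty acid and triglyceride synthesis and 28 of cholesterol synthesis; an asterisk marks an adjusted p under 0.05, reached by Scd2. KO replicate 1 (red circles) lies far to the right of the other KO samples for Thrsp, Elovl6, Acly, Acaca, Fasn and Me1.

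Among 28 lipoprotein genes Lpl and Lipc rose and Pltp fell, while 1.02% of all genes rose and 0.864% fell. Lipc, the hepatic lipase, was 65.1, 73.1 and 83.6 RPKM in WT and 109, 142 and 118 in KO (0.72 ± 0.12, adjusted p = 0.012). Pltp, the phospholipid transfer protein, was 18.5, 24.2 and 23.9 in WT and 10.4, 10.8 and 11.5 in KO (-0.96 ± 0.17, adjusted p = 0.018). Of 37 genes of glucose metabolism 2 rose and 0 fell (1 with an unadjusted p under 0.05). Gckr, the inhibitor of glucokinase, rose from 86.1, 82.2 and 102 RPKM to 169, 128 and 137 (0.68 ± 0.12, adjusted p = 0.019), and the glycolytic Pgam1 by 0.48 ± 0.11, adjusted p = 0.047. Kynu, of tryptophan breakdown, was the 1 gene of 44 in amino acid metabolism to pass, from 98.4, 99 and 106 RPKM to 199, 132 and 151 (0.64 ± 0.13, adjusted p = 0.027), while 17 of the 44 were higher and 4 lower at an unadjusted p under 0.05 and the KO samples lay above all WT samples for 18 (11.4% of all genes did). None of the groups overlapped for these 5 genes. The threshold was missed by Lipc without WT replicate 2 (adjusted p 0.057), by Pltp without WT replicates 2 or 3 or KO replicate 1 (adjusted p 0.058 to 0.088), by Gckr without WT replicates 1 or 2 or KO replicate 1 (adjusted p 0.056 to 0.095), by Pgam1 without WT replicates 1, 2 or 3 or KO replicates 1 or 3 (adjusted p 0.1 to 0.15) and by Kynu without WT replicates 1, 2 or 3 or KO replicate 3 (adjusted p 0.067 to 0.11).

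Of 44 kept genes of plasma, complement, coagulation and acute phase proteins, C9 rose and Alb, Cfb and Saa4 fell. Over all genes tested 1.02% rose and 0.864% fell. Alb, the most abundant hepatocyte transcript, fell from 37870, 37560 and 32750 RPKM to 18460, 21240 and 17320 (-0.93 ± 0.13, adjusted p = 0.0045). The 3 KO samples lay under all WT samples, but under quantile normalization, which gives the top-ranked gene of every sample the same value, the difference was 0 and the call was lost. Saa4, a serum amyloid A of the resting state, fell from 98.8, 63.8 and 70 RPKM to 20, 31.1 and 22.8 (-1.61 ± 0.17, adjusted p = 5.1e-04). The complement genes C9 and Cfb went opposite ways (0.84, adjusted p = 0.024 and -0.39, adjusted p = 0.038), and Cfb overlaps C2, which also fell. Of secreted proteins outside the list, named after their values were seen, C8g (0.36, adjusted p = 0.043), Agt (0.44, adjusted p = 0.013) and Apof (0.44, adjusted p = 0.044) rose and C2 (-0.41, adjusted p = 0.038) fell. C8g missed the threshold without each of the 6 libraries in turn (adjusted p 0.053 to 0.17), Agt without WT replicates 2 or 3 (adjusted p 0.058 to 0.076), Apof without WT replicates 2 or 3 or KO replicates 1, 2 or 3 (adjusted p 0.069 to 0.19) and C2 without WT replicates 1, 2 or 3 or KO replicates 1 or 3 (adjusted p 0.09 to 0.14). Foxa3, of the 14 kept liver transcription factors, fell from 17, 14.5 and 16.2 RPKM to 7.18, 11.1 and 5.87 (-0.94 ± 0.21, adjusted p = 0.047). Spp1, the secreted osteopontin, rose from 46, 61.5 and 48.6 RPKM to 90.7, 148 and 116 (1.16 ± 0.22, adjusted p = 0.023). It is also 1 of 8 listed markers of bile duct cells, of which 4 were kept and no other passed in limma. Their summed level, mostly Spp1, was 49.7 to 65.6 RPKM in WT and 93.7 to 153 in KO. The defining markers Krt7, Krt19 and Epcam had group means of 0.554 to 1.26 RPKM and differences of -0.40, 0.31 and 0.42 (adjusted p = 0.38, 0.67 and 0.49), and the part of these cells in the result was not tested. Cp, the ceruloplasmin gene, rose by 0.47 ± 0.11, adjusted p = 0.048. The threshold was missed by C9 without WT replicates 2 or 3 or KO replicates 2 or 3 (adjusted p 0.056 to 0.11), by Cfb without WT replicates 1, 2 or 3 or KO replicates 1 or 3 (adjusted p 0.089 to 0.14), by Foxa3 without WT replicates 1, 2 or 3 or KO replicates 1 or 3 (adjusted p 0.12 to 0.16), by Spp1 without WT replicates 1 or 3 or KO replicates 2 or 3 (adjusted p 0.062 to 0.086) and by Cp without WT replicates 2 or 3 or KO replicates 1, 2 or 3 (adjusted p 0.065 to 0.2).

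Genes known to differ between male and female mouse liver were among those that changed. Over all genes tested 1.02% rose and 0.864% fell. Of 26 listed female-biased genes 16 were kept, and 4 rose (Sult1e1, Cyp2b10, Lpl and Slco1a4) and Cyp2a4 fell, with a median of 0.64 that ranged from 0.45 to 0.79 when each library was left out. Their summed level was 132 to 184 RPKM in WT and 315 to 388 in KO. The list was mixed, with differences from -2.81 to 4.19. At an unadjusted p under 0.05, 7 of the 16 were higher and 4 lower. The KO samples lay above all WT samples for 8 and under them for 3 (11.4% and 9.25% of all genes did). Of 18 male-biased genes Serpina12 rose and Cyp4a12a and Susd4 fell, with a median of -0.13. Susd4, a complement regulator, had -1.24 ± 0.26, adjusted p = 0.033 and missed the threshold without WT replicates 2 or 3 or KO replicates 1 or 2 (adjusted p 0.073 to 0.14).

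No gene of the large housekeeping groups passed. Of 81 kept cytosolic ribosomal protein genes 0 passed in limma and 22 had an unadjusted p under 0.05, all 22 higher. The median was 0.15, with 73 positive and 45 without overlap upward (11.4% of all genes were). Of 80 respiratory chain genes 0 passed and 9 had an unadjusted p under 0.05, with a median of 0.10. Of 37 proteasome genes 0 passed and 3 had an unadjusted p under 0.05, with a median of 0.00. Over all genes tested 1.89% passed, and 1521 of 10653 had an unadjusted p under 0.05, 843 higher and 678 lower. Among 30 kept cell cycle genes Ccne2, cyclin E2, was the 1 to pass (0.382, 0.633 and 0.102 RPKM in WT, 1.8, 1.35 and 1.26 in KO, 0.86, adjusted p = 0.044), through KO only, and the tubulin gene Tuba8 was the 1 to pass of 20 in the cytoskeleton (1.07, adjusted p = 0.047), also through KO only. Both rested on single libraries, Ccne2 missing the threshold without each of the 6 libraries in turn (adjusted p 0.059 to 0.15) and Tuba8 without WT replicates 1, 2 or 3 or KO replicates 1 or 3 (adjusted p 0.065 to 0.17).

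No tested gene of those listed here as tied to miR-378 by the study passed at CT0. The list is only a part of them. It lacks Cry2, which the study counts among genes affected by miR-378 over-expression and which rose in KO, as given above. Of 14 listed genes 9 were kept, 0 passed in limma and 2 had an unadjusted p under 0.05. Over all 10653 genes tested 1.89% passed and 1521 had an unadjusted p under 0.05. With 9 genes, 0 calls is near that share and does not set the list apart. Por, which donates electrons to cytochromes P450, was 40.1, 73.8 and 52.9 RPKM in WT and 47.1, 35.8 and 43.1 in KO (-0.36, adjusted p = 0.47; 95% interval -0.81 to 0.09). Cdkn1a, the cell cycle inhibitor p21, was 2.47, 1.32 and 1.8 and 4.71, 1.54 and 1.32 (0.19, adjusted p = 0.85; 95% interval -0.53 to 0.92). Pdk4, an inhibitor of pyruvate oxidation, was 3.11, 8.38 and 5.18 and 10.4, 6.43 and 8.46 (0.58, adjusted p = 0.28; 95% interval 0.06 to 1.11). The groups overlapped for each of these genes. Gadd45a (-0.64, adjusted p = 0.25; 95% interval -1.18 to -0.10), Bbc3 (0.22), Irf2 (-0.29), Rdbp (0.01), Elp3 (0.04) and Pnrc2 (0.04) did not pass either. The 2 genes with an unadjusted p under 0.05 were Pdk4, higher in KO, and Gadd45a, lower. Ppargc1b, Bcl2, Ccne1, Runx3 and Eid2 were under the filter.

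Many of the calls given above also depended on the genes or samples in the fit. Of 75 named genes that passed, 33 missed the threshold with only the 6 CT0 samples in the limma fit (adjusted p 0.05 to 0.12) and 33 with no filter on low values (adjusted p 0.054 to 0.22). Lost in both were Apof, Bhlhe40, C2, C8g, C9, Ccne2, Ces1g, Cfb, Cml5, Cp, Cpt1a, Cry2, Defb1, Foxa3, Kynu, Nfil3, Nr1d1, Nr1d2, Pgam1, Slc22a7, Susd4, Tuba8, Ugp2, Ugt1a1, Ugt1a2 and Ugt1a9. Lost with only the 6 CT0 samples were Agt, Cyp2a4, Cyp3a59, Gckr, Klf9, Lipc and Slc47a1, and lost with no filter were Acaa1a, Acaa1b, Alb, Cyp2b10, Cyp4a12a, Slco1a4 and Spp1. A pseudocount of 0.1 ended the calls of Cml5, Nfil3 and Tuba8, and a common median that of Cp. A replicate block ended 17 calls, among them those of Acaa1b, Cry2, Cyp4a12a, Nfil3, Slco1a4 and Ugp2. Thinning all libraries to the lowest depth ended 6, those of Ces1g, Cml5, Cp, Cry2, Pgam1 and Tuba8.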

How the data were processed

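Total RNA from mouse liver was made into TruSeq RNA v2 libraries, a kit that does not mark strand. The authors deposited RPKM values per Ensembl transcript for each sample (46585 rows). The submitters' processing notes name TopHat2, bedtools 2.19.1 and mm9; how reads shared by several transcripts or genes were counted is not given in the sources used here. RPKM values are not counts, so values were analysed as log2(RPKM + 1), which understates changes of low genes. A limma 3.58.1 model (R 4.3.3, lmFit and eBayes with trend) of the 4 group means took in the 12 samples, with Benjamini-Hochberg adjustment over 10653 genes and a threshold of 0.05. Depth came from the steps of RPKM times transcript length (GENCODE vM1 on NCBIM37, 95.5% of rows matched). Differences are KO minus WT, with SE. The fit was tested on simulated data. Python 3.11.15 served for joins and promoters (pandas 2.3.3) and for plots (matplotlib 3.10.9).

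Named were all clock, repressor and bZIP list members, and the 12 largest rises and 12 largest falls among called genes without overlap. Up to 4 called members of every other list were named too, and all listed genes tied to miR-378. Genes and lists were chosen with earlier results of these data known, so no test was run over a list; lists are described by counts and medians. Alternatives changed the pseudocount, filter, scaling, transcript row, samples in the fit, replicate block and fold limit, and left out each CT0 sample. Thinning of reads, removal of length trends and list medians under the alternatives were chosen after seeing the data. Results of 4 genes are not reported here, and these genes were left out of the lists and their counts. Gene models that overlap, and antisense genes, cannot be told apart without strand.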

Additional observations from a re-analysis of the deposited data

Results flagged for a closer look

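For 13 of the genes named, the genotype difference at CT12 differed from that at CT0 (limma interaction, Benjamini-Hochberg adjusted p under 0.05). The difference was higher at CT12 than at CT0 for Arntl by 2.50 on the log2 scale, Cdkn1a by 2.77, Npas2 by 1.29, Dio1 by 1.14, Clock by 0.98 and Klf9 by 0.71. The change was -2.56 for Cyp2a5, -2.50 for its near-copy Cyp2a4, -2.41 for Dbp, -2.19 for Per3, -1.89 for Tef, -1.87 for Per2 and -1.49 for Por. Arntl, Per2 and Tef passed the threshold at both times with opposite signs. Tef was at 45.1, 45 and 46.9 RPKM in WT and 21.4, 26.3 and 22.4 in KO at CT12, and Dbp, low at CT0 in both genotypes, at 21.7, 33.4 and 17.3 and 3.29, 8.11 and 4.66. Cdkn1a was at 0.227, 0.606 and 1.52 RPKM in WT and 12.8, 10.2 and 14.3 in KO at CT12.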

How the results depend on the processing

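The 201 genes called at CT0 (109 higher, 92 lower) became 114 (68 and 46) with no filter, 107 (58 and 49) with only the 6 CT0 samples in the fit, 68 (40 and 28) with a log2 limit of 1, and 459 rows (241 and 218) over all transcript rows, where a gene can count more than once. Leaving out each CT0 sample gave 77 to 184 in all, 46 to 110 higher and 31 to 74 lower, and 81 to 137 genes in place of 145 for the difference between CT12 and CT0. Other alternatives gave 152 to 262. A replicate block gave 173 (97 higher, 76 lower) and 122 for the difference between times, with 2 in place of 4 calls among genes of fatty acid oxidation. The numbers do not pair the samples: deviations of samples with the same number correlated by 0.007 on average (18 pairs) against -0.004 for other numbers (36). Of 64 called genes named by the rule given above, 28 passed under every alternative counted for them, 36 missed the threshold under at least 1, and 0 changed sign. Called genes that the text names outside that rule, such as Ces1g, C8g and Cyp2a5, are among the 75 counted above but not among these 64. The counts over the 64 also leave out the log2 limit of 1 and the use of the longest transcript. The sign changed for 7 of the 16 named genes in the fit that had not passed (Bhlhe41, Cdkn1a, Clock, Elp3, Hlf, Pnrc2 and Rdbp). Per3 passed with a pseudocount of 0.1, quantile normalization or the length trend removed.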
